A study of Mus musculus with 12 samples.

Results

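The gelsolin family and the actin-severing and actin-binding proteins that work beside it were followed through 10 genes, *Gsn*, *Capg*, *Scin*, *Svil*, *Flii*, *Cfl1*, *Cfl2*, *Dstn*, *Pfn1* and *Tmsb4x*, out of 28995 genes listed in the RNA sequencing of skeletal muscle fibroblasts. They were found by gene symbol, and all 10 were listed for all 3 treatments. *Gsn* was chosen by its higher level with aldosterone in these same libraries, and the other 9 were added as its relatives and partners with results of these data known. The values of *Gsn* with aldosterone are therefore a description and carry no test. Primary fibroblasts came from the hindlimb muscles of 2 wild-type C57 BL/10 mice at postnatal day 3, pooled per mouse before plating, and every group, the control included, was kept in charcoal-stripped serum, which holds little steroid. Plates were treated for 48 hours with 1 µM aldosterone, an agonist of the mineralocorticoid receptor, with 1 µM spironolactone, an antagonist of that receptor, or with the DMSO vehicle. Each treatment had 4 libraries, from 2 replicate plates per mouse by the labels, so the p-values measure the spread between plates of 2 mice. Libraries carry a sample number and a biological replicate number, written here as 2_1 for sample number 2 and replicate 1, and it is not stated which number stands for the mouse.

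Actin filaments grow at their barbed ends and turn over by severing, capping and the recycling of monomers. Gelsolin severs filaments and caps their barbed ends when calcium binds it, and its relatives share the same repeated fold with differing abilities. Cofilins and destrin sever and depolymerize filaments without calcium, while profilin and thymosin beta 4 bind the monomers. In fibroblasts this cycle serves adhesion, movement and contraction.

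Positions are those of the authors' files, and the build is mm39 by the submitters' processing notes, whereas the methods of the study name mm9. Of 20676 genes compared, only 39 had the same start in an mm9 annotation, so these positions are not those of mm9. *Gsn* lies on chromosome 2 from 35146392 to 35197904 on the plus strand, and *Dstn* on the same chromosome and strand from 143757240 to 143785244. *Capg* lies on chromosome 6 (72521374 to 72539966, plus), *Svil* on chromosome 18 (4920540 to 5119299, plus) and *Cfl1* on chromosome 19 (5540483 to 5545229, plus). *Scin* (40109768 to 40184227) and *Cfl2* (54905594 to 54909662) are both on the minus strand of chromosome 12, and *Flii* (60604949 to 60618089) and *Pfn1* (70542676 to 70545470) on that of chromosome 11. *Tmsb4x* is on the minus strand of chromosome X (165990089 to 165992311). All 10 are protein-coding, and counts are per gene, so the transcripts of 1 gene were not told apart. Whether reads were counted by strand is not given in the sources used here. On the opposite strand, *Flii* shares 64 bases with *Llgl1* (1489 to 2377 reads per library), *Cfl1* shares 2967 bases with *Snx32* (289 to 515 reads) and *Cfl2* shares 231 bases with a long non-coding RNA (0 to 6 reads). Within *Gsn* lies 1 unnamed gene model on the same strand with 84 to 185 reads. Reads shared with processed pseudogene copies of *Cfl1*, *Pfn1*, *Dstn* or *Tmsb4x* were not examined.

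The reads assigned to genes ran from 19136923 to 30219185 in a library (median 23833430). Levels are given as CPM (counts scaled to the same total of reads on genes in each library, with the TMM correction), or as CPM divided by gene length in kilobases where genes are compared with each other. The cultures carried fibroblast markers, with all 10 of that list listed and a summed level from 43359 to 53264 CPM over the 12 libraries. This sum was 43359 to 48152 CPM with aldosterone and 49449 to 53264 CPM with vehicle. Of its 10 genes limma called 3 higher and 1 lower with aldosterone. The macrophage list summed to between 9.59 and 13.3 CPM, and 3 of its 10 genes (*C1qa*, *C1qb* and *Itgam*) were not listed, while *Ptprc*, *Adgre1* and *Tyrobp* were under 1 CPM in every library. The myogenic list, 8 of 8 listed, summed to between 8.58 and 18.5 CPM with aldosterone and between 21.7 and 31.9 CPM with vehicle, and its defining *Pax7*, *Myf5*, *Myod1*, *Myog*, *Mymk* and *Ckm* were under 1 CPM everywhere. The endothelial list, 6 of 6 listed, summed to between 28.6 and 31.7 CPM with aldosterone and between 19.9 and 22.4 CPM with vehicle, with *Pecam1*, *Cdh5*, *Cldn5* and *Emcn* under 1 CPM. The smooth muscle list, 6 of 6 listed, summed to between 1915 and 2930 CPM with aldosterone and between 2451 and 3552 CPM with vehicle. For the Schwann list, 5 of 5 listed, the sums were 15.7 to 23.3 CPM with aldosterone and 12.2 to 17.8 CPM with vehicle. The part of such cells in the differences with aldosterone was not tested. *Fkbp5*, a steroid receptor target used to check the treatment, was between 252 and 295 CPM with aldosterone, between 11.6 and 15.5 CPM with vehicle and between 13.8 and 19.9 CPM with spironolactone.

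Promoter sequences of the members whose levels moved with aldosterone are shown here, with *Tmsb4x* for contrast as the member whose sequence held a steroid receptor hexamer. Each is the 250 bases before a RefSeq start in GRCm38.p6, which is another build than that of the files, and a window was found for 9 of the 10 members, all but *Svil*. Capitals mark a match on either strand to AGAACA, the hexamer bound by mineralocorticoid and glucocorticoid receptors, or to GGGCGG, the GC box bound by Sp1. The letters TATAAA and the CArG box bound by serum response factor were searched as well and were found in none of the 9 members.
Gsn start 1, chr2:35256109-35256358, plus strand: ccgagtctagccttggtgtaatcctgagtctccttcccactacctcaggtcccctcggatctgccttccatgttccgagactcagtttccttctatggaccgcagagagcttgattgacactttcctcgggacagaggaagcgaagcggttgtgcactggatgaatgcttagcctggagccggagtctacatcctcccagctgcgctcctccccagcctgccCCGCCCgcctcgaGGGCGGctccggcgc
Gsn start 2, chr2:35266494-35266743, plus strand: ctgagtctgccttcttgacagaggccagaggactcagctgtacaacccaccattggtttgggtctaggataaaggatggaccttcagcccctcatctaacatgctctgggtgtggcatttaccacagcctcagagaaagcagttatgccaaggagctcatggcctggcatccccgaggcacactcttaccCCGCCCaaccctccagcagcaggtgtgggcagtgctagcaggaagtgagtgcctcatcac
Gsn start 3, chr2:35282130-35282379, plus strand: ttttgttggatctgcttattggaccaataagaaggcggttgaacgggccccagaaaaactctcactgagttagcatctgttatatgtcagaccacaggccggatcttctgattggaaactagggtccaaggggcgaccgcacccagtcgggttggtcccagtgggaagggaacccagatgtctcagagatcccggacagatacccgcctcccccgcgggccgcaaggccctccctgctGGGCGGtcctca
Capg, chr6:72549397-72549646, plus strand: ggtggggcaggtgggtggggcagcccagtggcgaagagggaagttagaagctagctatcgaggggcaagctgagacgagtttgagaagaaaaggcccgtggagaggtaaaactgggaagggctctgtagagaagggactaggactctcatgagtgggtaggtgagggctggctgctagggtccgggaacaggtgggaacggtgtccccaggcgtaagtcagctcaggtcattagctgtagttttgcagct
Flii, chr11:60727264-60727513, minus strand: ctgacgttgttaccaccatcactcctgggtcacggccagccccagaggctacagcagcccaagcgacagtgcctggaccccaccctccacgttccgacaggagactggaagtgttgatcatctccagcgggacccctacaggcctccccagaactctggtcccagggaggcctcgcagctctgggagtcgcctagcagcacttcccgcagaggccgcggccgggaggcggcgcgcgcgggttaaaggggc
Tmsb4x, chrX:167209219-167209468, minus strand: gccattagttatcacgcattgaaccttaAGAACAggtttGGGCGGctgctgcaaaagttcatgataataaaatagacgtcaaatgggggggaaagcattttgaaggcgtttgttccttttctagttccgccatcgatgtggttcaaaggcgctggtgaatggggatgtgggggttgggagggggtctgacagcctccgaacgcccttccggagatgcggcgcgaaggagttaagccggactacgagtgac
All 3 annotated starts of *Gsn* had a GC box within 60 bases of the start, and the first start had 2 of them. Such a box was present in 32.7% of all 32851 windows of this length. AGAACA was present in 16.1% of all windows, TATAAA in 12.4% and the CArG box in 1.5%. Among the members AGAACA occurred only in *Tmsb4x*, where it began 222 bases before the start and stood just before a GC box. GC boxes were also found for *Scin*, *Cfl2*, *Dstn* and *Pfn1*, and none for *Capg*, *Flii* or *Cfl1*. Those first 4 genes were not called with aldosterone in the fit without the sample number. A match or its absence in this window is a description of letters only. The GC content was 60.8%, 56.0% and 57.6% before the 3 starts of *Gsn*, 57.6% for *Capg*, 66.8% for *Flii* and 52.0% for *Tmsb4x*, against a median of 52.4% over all windows.

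*Gsn*, the calcium-activated severing and capping protein that is also secreted into plasma, stood apart from the other members by its level with aldosterone. Vehicle libraries held 1043, 962, 1083 and 1049 CPM, spironolactone libraries 1023, 1120, 1103 and 1110 CPM, and aldosterone libraries 3166, 3208, 3633 and 3598 CPM. Every aldosterone library lay far above all 8 others, and vehicle and spironolactone overlapped. Means were 1034 ± 51.0 CPM with vehicle, 3401 ± 248 CPM with aldosterone and 1089 ± 44.3 CPM with spironolactone (SD, n = 4 each). *Gsn* took between 0.0967% and 0.110% of all reads on genes with vehicle and between 0.305% and 0.359% with aldosterone. On the log2(normalized count + 1) scale the difference from vehicle was 1.72, or 3.28-fold, and that from spironolactone was 1.64, or 3.12-fold. Both comparisons use the same aldosterone libraries. Within sample number 1 the difference from vehicle was 1.67 and within sample number 2 it was 1.76. In bulk RNA, more RNA per cell and a change in how many cells carry it cannot be told apart, here and for every gene below.

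**Figure D1:**
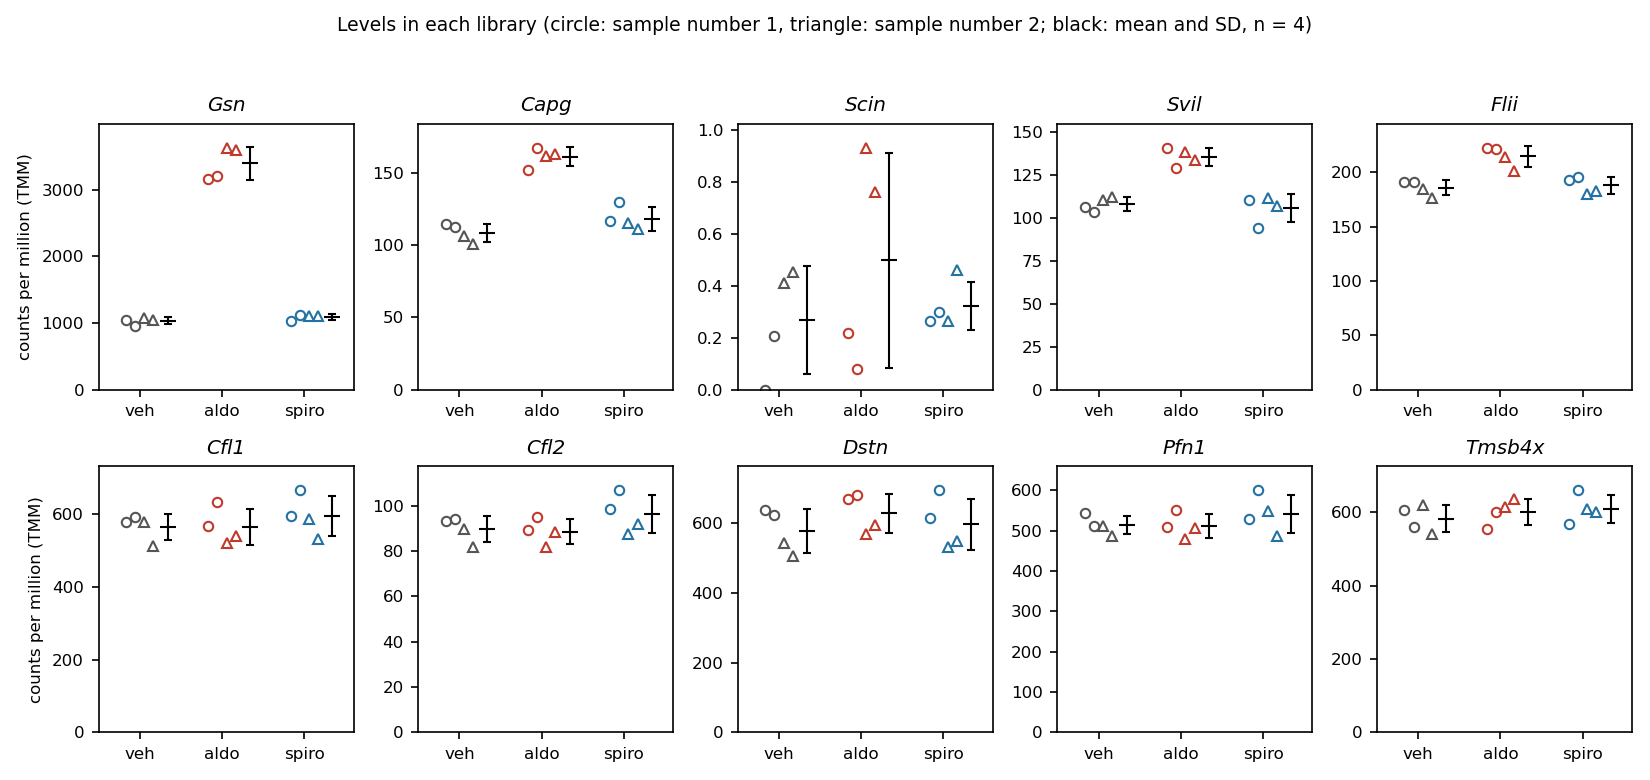
CPM of the 10 genes in each of the 12 libraries by treatment (veh, vehicle; aldo, aldosterone; spiro, spironolactone), each panel with its own linear axis from 0, with circles for sample number 1, triangles for sample number 2 and bars for the mean and SD (n = 4). *Gsn* sits between 3166 and 3633 CPM with aldosterone and between 962 and 1120 CPM in the other 8 libraries, while *Cfl1*, *Cfl2*, *Dstn*, *Pfn1* and *Tmsb4x* overlap across treatments.

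Among the 9 other members, *Capg*, *Svil* and *Flii* were higher with aldosterone than with vehicle and 0 were lower, by limma at an adjusted p (Benjamini-Hochberg, over all 27319 genes in that table) of 0.05 or less, whatever the fold. Of all genes tested there, 5.68% were called higher and 4.74% lower. Only 15706 of these 27319 genes were expressed by the edgeR filter, as the members were, and shares among expressed genes were not taken. With the further threshold of a log2 fold change of 1, which 1.4% of all genes passed, 0 of these 9 were called by limma, DESeq2 or edgeR. At an unadjusted p under 0.05 the counts were also 3 higher and 0 lower, and DESeq2 and edgeR on the recovered reads each called 3 higher and 0 lower. *Gsn*, chosen for its level in this comparison, is not counted. The 9 had a median log2 fold change of 0.12, and all genes one of -0.01. All 3 belong to the gelsolin family by sequence, but since the list was drawn up with these results known, the count is a description.

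*Capg*, the macrophage-capping protein, caps barbed ends but does not sever filaments. It held 115, 112, 107 and 101 CPM with vehicle, 152, 168, 162 and 163 CPM with aldosterone and 116, 130, 116 and 111 CPM with spironolactone. The aldosterone libraries were all above the other 8, and the vehicle and spironolactone libraries overlapped. The log2 fold change was 0.57 ± 0.0574 (SE; 1.48-fold, adjusted p = 3.63e-06 by limma) against vehicle and 0.45 ± 0.0590 (1.37-fold, adjusted p = 4.70e-05 by limma) against spironolactone. *Capg* is named after a macrophage protein, and the summed macrophage list was 10.3 to 11.8 CPM with aldosterone and 10.6 to 13.3 CPM with vehicle. The part of macrophages in the level of *Capg* was not tested.

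*Svil* encodes supervillin, a large relative that ties filaments and myosin II to membranes. Its level was 107, 104, 110 and 112 CPM with vehicle, 141, 129, 138 and 134 CPM with aldosterone and 110, 94.0, 112 and 107 CPM with spironolactone. Again the aldosterone libraries stood above all others. The difference was 0.32 ± 0.0531 on the log2 scale (SE; 1.25-fold, adjusted p = 0.000539 by limma) against vehicle and 0.36 ± 0.0621 (1.28-fold, adjusted p = 0.000737 by limma) against spironolactone.

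*Flii* encodes flightless-1, a gelsolin relative with leucine-rich repeats that also acts with nuclear receptors as a coactivator. Vehicle libraries held 191, 191, 185 and 177 CPM, aldosterone libraries 223, 221, 215 and 202 CPM and spironolactone libraries 194, 196, 180 and 183 CPM. Every aldosterone library was above the other 8, vehicle and spironolactone overlapped, and aldosterone library 2_2 was only slightly above the highest spironolactone library. *Flii* rose by 0.21 ± 0.0541 on the log2 scale against vehicle (SE; 1.16-fold, adjusted p = 0.0188 by limma) and by 0.19 ± 0.0555 against spironolactone (1.14-fold, adjusted p = 0.0370 by limma). The first call was lost in 5 of 8 fits that left out a library, with an adjusted p by limma of 0.0653 without vehicle 2_1, 0.0606 without vehicle 2_2, 0.0603 without aldosterone 1_1, 0.0732 without aldosterone 1_2 and 0.0633 without aldosterone 2_1. The second was lost in 7 of 8, with adjusted p-values by limma from 0.0548 without spironolactone 1_2 to 0.126 without spironolactone 2_1, and held only without aldosterone 2_2 (0.0291). When the fit held a replicate block for the sample number both were kept, with adjusted p = 0.000218 and 0.000826 by limma.

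*Scin*, which encodes the severing protein scinderin (adseverin), was close to silent. Its reads were 0, 5, 8 and 10 with vehicle, 4, 2, 24 and 23 with aldosterone and 6, 9, 6 and 11 with spironolactone. The highest counts were those of the aldosterone libraries of sample number 2, and the groups overlapped. The log2 fold change against vehicle was 0.85 ± 0.782 (SE; 95% confidence interval -0.80 to 2.51, adjusted p = 0.614 by limma), which was not called. It ran from 0.060 without vehicle 1_1 to 1.42 without aldosterone 1_2. The aldosterone libraries split by sample number, which was not tested by itself. The test of the sample number below is over all 12 libraries and includes these.

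**Figure D2:**
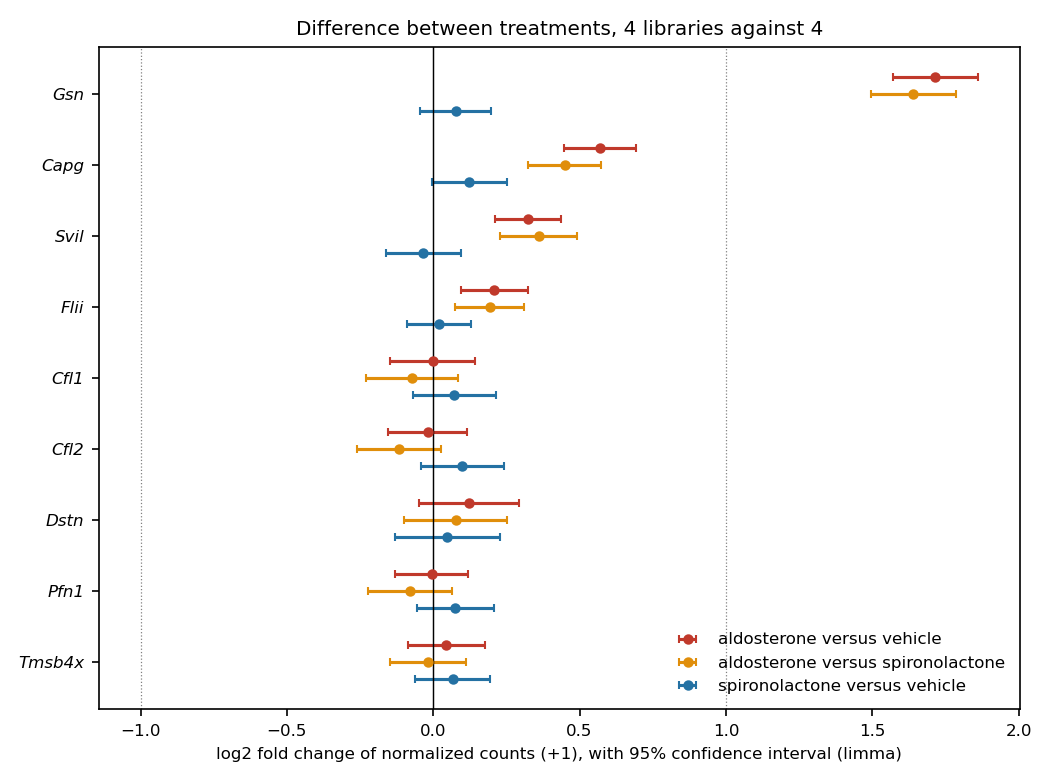
Log2 fold changes of normalized counts (plus 1) in the 3 comparisons between treatments, with 95% confidence intervals from limma (4 libraries against 4) for 9 genes, *Scin* being left out for its wide interval. *Gsn* lies at 1.72 and 1.64 in the 2 comparisons with aldosterone, past the dotted line at 1, *Capg*, *Svil* and *Flii* lie between 0.19 and 0.57, and the intervals of the other 5 genes include 0 in all 3 comparisons. The intervals drawn for *Gsn* with aldosterone are not to be read as a test, since *Gsn* was chosen on these values.

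In the fit without the sample number, the ADF/cofilin family and the monomer binders were not called with aldosterone. With a replicate block for it, *Dstn* was called, as given below. *Cfl1*, the main cofilin of non-muscle cells, held 577, 593, 578 and 513 CPM with vehicle and 566, 633, 521 and 539 CPM with aldosterone. Both groups covered the same range, and the 95% confidence interval of the fold ran from 0.902 to 1.10 (adjusted p = 0.991 by limma). *Cfl2*, the muscle cofilin, had a mean of 89.8 ± 5.58 CPM with vehicle and 88.6 ± 5.46 CPM with aldosterone (SD, n = 4), with a fold between 0.899 and 1.08 (adjusted p = 0.911 by limma). *Pfn1*, the profilin that recharges monomers with ATP, had means of 514 ± 22.8 and 512 ± 30.0 CPM (SD, n = 4) and a fold between 0.913 and 1.09 (adjusted p = 0.975 by limma). *Tmsb4x*, which encodes the monomer-sequestering thymosin beta 4, had means of 582 ± 37.0 and 600 ± 34.5 CPM (SD, n = 4) and a fold between 0.942 and 1.13 (adjusted p = 0.737 by limma). These bounds are those of the fit without the sample number.

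*Dstn*, which encodes destrin (actin-depolymerizing factor), was the member whose call depended on the sample numbers. Vehicle libraries held 638, 625, 543 and 506 CPM, aldosterone libraries 669, 682, 568 and 594 CPM and spironolactone libraries 614, 694, 532 and 549 CPM. The 2 libraries of sample number 1 came before the 2 of sample number 2 in each of these lists, and in every treatment they were the higher ones. Across all 8 libraries aldosterone and vehicle overlapped, whereas within each sample number both aldosterone libraries were above both vehicle libraries, by 0.10 in sample number 1 and 0.14 in sample number 2 on the log2 scale. Without the sample number in the fit the log2 fold change of 0.12 ± 0.0809 (SE) was not called (adjusted p = 0.450 by limma), and with a replicate block for the sample number it was (adjusted p = 0.0247 by limma, 1.09-fold). With that replicate block 4 of the 9 members other than *Gsn* were higher with aldosterone than with vehicle, as were 2371 of all 27319 genes. Against spironolactone the value was 0.08 ± 0.0834 (SE; adjusted p = 0.705 by limma, and 0.309 by limma with the replicate block).

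Aldosterone was then set against spironolactone, agonist against antagonist at the same 1 µM and the same 48 hours. Leaving *Gsn* uncounted, *Capg*, *Svil* and *Flii* were again the 3 members called higher, 0 of 9 were called lower by limma, DESeq2 or edgeR, and the same numbers, 3 and 0, had an unadjusted p under 0.05 by limma. In the table of 27631 genes, 4.93% were called higher, 3.96% lower and 1.38% higher past both thresholds, which 0 of the 9 were by any of these tools. Since the aldosterone libraries are the same as in the comparison with vehicle, the second set of values is not an independent repeat. For *Cfl1*, *Cfl2*, *Pfn1* and *Tmsb4x* the log2 fold changes were -0.07, -0.12, -0.08 and -0.02, with adjusted p-values of 0.692, 0.407, 0.622 and 0.920 by limma. For *Scin* the value was 0.16 ± 0.584 (SE; adjusted p = 0.929 by limma).

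Spironolactone was also set against vehicle, a comparison in which no member was called. By limma 0 of 10 were called against vehicle, 0 had an unadjusted p under 0.05, and 0 were called by DESeq2, by edgeR or in the fit with a replicate block for the sample number. Among all 27598 genes 0% were called by limma, with 1251 at an unadjusted p under 0.05, 13 called by DESeq2, 0 by edgeR and 97 by limma with the replicate block. The log2 fold change of *Gsn* was 0.08 ± 0.0578 (SE; 95% confidence interval -0.05 to 0.20, adjusted p = 0.934 by limma), so a rise above 1.15-fold lay outside the interval. *Capg* had the value nearest to a call, 0.12 ± 0.0609 (SE; 95% confidence interval -0.01 to 0.25, adjusted p = 0.934 by limma, and 0.383 with the replicate block). The other 8 members ranged from -0.03 for *Svil* to 0.70 for *Scin*.

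Levels per length placed the members in the same order with vehicle and spironolactone and in another order with aldosterone. With vehicle the order in CPM per kilobase was *Tmsb4x* (424 ± 27.0), *Gsn* (328 ± 16.2), *Dstn* (302 ± 33.3), *Pfn1* (214 ± 9.47), *Cfl1* (199 ± 12.4), *Capg* (43.0 ± 2.52), *Flii* (36.9 ± 1.36), *Cfl2* (27.5 ± 1.71), *Svil* (10.1 ± 0.362) and *Scin* (0.0891 ± 0.0694), each as mean and SD with n = 4. The vehicle libraries of *Gsn* and *Dstn* overlapped, as did those of *Pfn1* and *Cfl1*, and the other neighbours in the order did not. With aldosterone *Gsn* led at 1077 ± 78.7, ahead of *Tmsb4x* at 438 ± 25.2 and *Dstn* at 329 ± 29.2 (SD, n = 4). Among 15706 expressed genes *Gsn* stood at rank 74 with vehicle and rank 18 with aldosterone, and *Tmsb4x* at ranks 48 and 59. The 5 gelsolin family members together held 418 ± 15.1 with vehicle, 1197 ± 78.2 with aldosterone and 439 ± 14.6 with spironolactone (SD, n = 4), of which *Gsn* was 78.4%, 90.0% and 78.6%. Without *Gsn* the family held 90.1 ± 3.48, 119 ± 2.31 and 94.1 ± 3.86. The sum of *Cfl1*, *Cfl2* and *Dstn* was 529 ± 45.5, 555 ± 46.8 and 551 ± 58.5, so the ratio of *Gsn* to this sum was 0.624 ± 0.0755 with vehicle, 1.96 ± 0.302 with aldosterone and 0.631 ± 0.0703 with spironolactone. With aldosterone, *Gsn* transcripts exceeded those of the ADF/cofilin family per length in every library, and in no library of the other treatments. RNA levels say nothing of the protein present or of its activity.

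**Figure D3:**
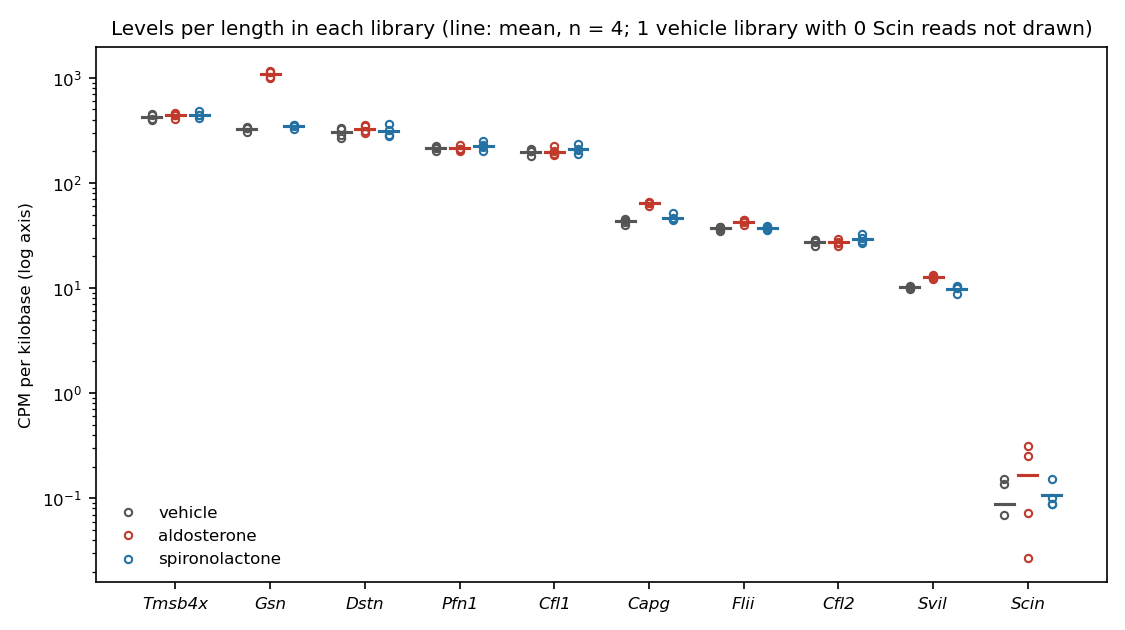
CPM per kilobase (log axis) of each member in each library, ordered by the vehicle mean, with a line for the mean of 4 libraries. With aldosterone *Gsn* moves from the second place (328) to the first (1077), past *Tmsb4x*, and *Scin* lies under 1 in every library.

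The make-up of the ADF/cofilin family was described per length as well. *Dstn* made up 57.1 ± 1.70% of the family per length with vehicle, 59.3 ± 0.965% with aldosterone and 56.7 ± 1.46% with spironolactone (SD, n = 4). *Cfl1* made up 37.7 ± 1.56%, 35.8 ± 0.897% and 38.0 ± 1.52%, and *Cfl2* the remaining 5.21 ± 0.144%, 4.90 ± 0.176% and 5.36 ± 0.185%. Spironolactone was compared with vehicle by a two-sided exact permutation test on these 3 shares, with p = 0.714 for *Dstn*, 0.771 for *Cfl1* and 0.286 for *Cfl2*, each 0.771 after Benjamini-Hochberg adjustment. The smallest p that 4 libraries against 4 allow is 0.0286.

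The sample number gave a comparison that had no part in the choice of the genes. Over all 12 libraries, with treatment in the fit, limma called 2 members higher in sample number 2 (10.7% of the 15706 expressed genes) and 4 lower (11.8%). With only 2 sample numbers, these p-values measure the spread between libraries, not between mice or cultures. *Dstn* had the largest of the falls, a log2 difference of -0.25 ± 0.0323 (SE; adjusted p = 4.19e-06 by limma), and was lower in sample number 2 within each treatment. *Cfl1* (-0.15 ± 0.0386, adjusted p = 0.00663) and *Cfl2* (-0.15 ± 0.0368, adjusted p = 0.00535) fell with it by limma, so all 3 genes of the ADF/cofilin family were lower. *Flii* fell by 0.09 on the log2 scale (SE 0.0281, adjusted p = 0.0206 by limma), a call lost without vehicle 2_2 (0.0509) or aldosterone 2_2 (0.0547). *Scin* was higher by 1.36 ± 0.372 (SE; adjusted p = 0.0106 by limma), on 0 to 9 reads in sample number 1 and 6 to 24 in sample number 2. Its reads were 4 and 2 against 24 and 23 with aldosterone and 0 and 5 against 8 and 10 with vehicle. With spironolactone they were 6 and 9 against 6 and 11, so the sample numbers overlapped in that treatment. *Gsn* was higher by 0.11 ± 0.0329 (SE; 1.08-fold, adjusted p = 0.0230 by limma), which is small beside its difference with aldosterone. That call of *Gsn* was lost without vehicle 1_2 (0.0733), vehicle 2_1 (0.0508), aldosterone 1_1 (0.0511), aldosterone 2_1 (0.0648) or spironolactone 1_1 (0.0515). *Capg*, *Svil*, *Pfn1* and *Tmsb4x* were not called, with adjusted p-values by limma of 0.180, 0.249, 0.0591 and 0.685. *Capg* was called without aldosterone 1_1 (0.0416), and *Pfn1* without aldosterone 1_1 (0.0378), spironolactone 1_1 (0.0252) or spironolactone 2_1 (0.0365).

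Some markers of other cells moved with the sample number as well. All 6 genes of the smooth muscle list (*Myh11*, *Cnn1*, *Acta2*, *Lmod1*, *Rgs5* and *Mcam*) were lower in sample number 2, with a summed level of 1915 to 2620 CPM against 2858 to 3768 CPM in sample number 1. Both genes of the myogenic list that were tested were lower, with ranges that overlapped (8.58 to 23.8 CPM against 16.4 to 35.3 CPM), and 1 of 3 endothelial genes was lower (19.9 to 29.0 CPM against 19.4 to 31.7 CPM for the list). Of the macrophage list 0 of 4 genes tested were called by limma, and its ranges overlapped (9.59 to 11.8 CPM against 11.5 to 13.3 CPM). In the Schwann list 2 of 4 genes tested were higher in sample number 2 and 0 lower. In the fibroblast list 4 of 10 were higher and 3 lower. The part of these cells in the sample number differences was not tested. Whether the response to treatment differed between the sample numbers was asked by an interaction term in limma. It called 0 members for aldosterone against vehicle, where 0.0146% of all genes were called, and 0 for spironolactone against vehicle (0% of genes). DESeq2 also called 0 members in both, and 0 had an unadjusted p under 0.05.

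**Figure D4:**
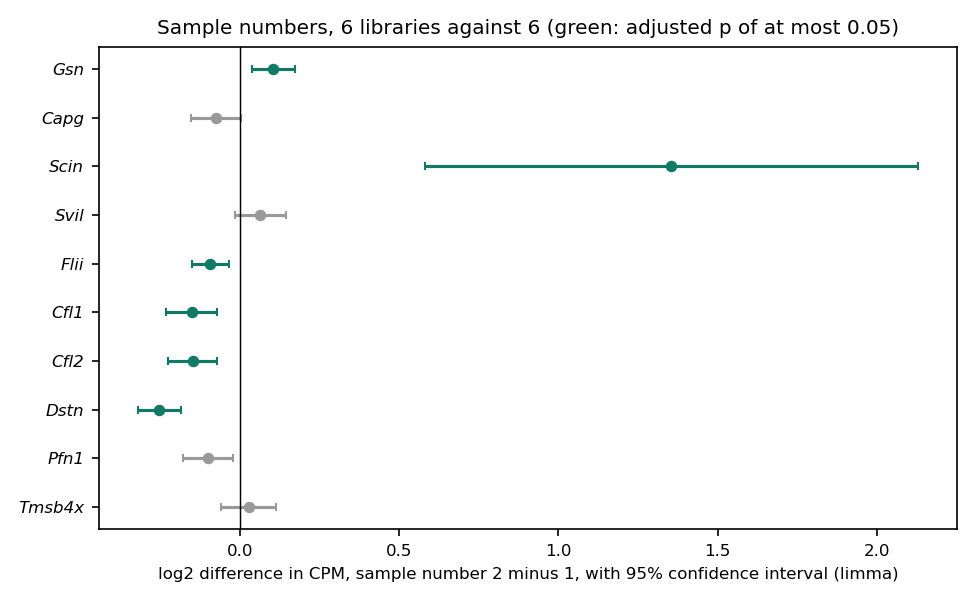
Log2 difference in CPM between sample numbers 2 and 1 over 12 libraries (6 against 6, treatment in the fit), with 95% confidence intervals from limma and green for an adjusted p of 0.05 or less. *Dstn*, *Cfl1*, *Cfl2*, *Flii* and *Pfn1* lie below 0 with intervals that exclude it, *Pfn1* not being green. *Gsn* lies above 0 with an interval that excludes it, and *Scin* lies at 1.36 with a wide interval.

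Other genes of actin turnover were counted by lists that were likewise drawn up with earlier results of these data known. Of 105 such genes tested, 17 were higher and 9 lower with aldosterone than with vehicle by limma. Their median was -0.02 on the log2 scale. Of all 27319 listed genes, 15706 of them expressed, 5.68% were higher and 4.74% lower, and the median was -0.01. Shares among the expressed genes alone were not taken. The remaining gelsolin relatives were *Vill*, *Vil1* and *Avil*, of which *Vill* was higher (0.46 ± 0.110, SE, adjusted p = 0.0117 by limma). This call of *Vill* was lost in 6 of 8 fits that left out a library, all but those without vehicle 2_2 and aldosterone 1_1, with adjusted p-values by limma of 0.0822 to 0.125. *Twf2*, a twinfilin that binds monomers, was 0.24 ± 0.0691 higher (adjusted p = 0.0376 by limma) and lost its call in 6 of 8 such fits, all but those without vehicle 2_1 and aldosterone 1_1 (0.0938 to 0.121).

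Of 15 genes listed for filament-end capping, which include regulators and relatives of capping proteins, 5 were higher and 0 lower by limma. The Arp2/3 complex and its activators had 5 higher and 1 lower of 22 genes, also by limma. *Add3*, an adducin that caps barbed ends under membranes, was 120.8 ± 16.5 CPM with aldosterone and 71.7 ± 4.34 CPM with vehicle (SD, n = 4; log2 fold change 0.74, adjusted p = 1.24e-05 by limma). *Tmod2*, a tropomodulin that caps pointed ends, was 22.1 ± 0.733 against 14.0 ± 0.814 CPM (SD, n = 4; 0.66, adjusted p = 1.37e-05 by limma). *Arpc1b*, a subunit of the branching Arp2/3 complex, was 462 ± 20.3 against 325 ± 18.2 CPM (SD, n = 4; 0.51, adjusted p = 1.33e-05 by limma), and *Wasf3*, an activator of that complex, was lower (-0.37 ± 0.0824, SE, adjusted p = 0.00669 by limma). Of 16 cofilin regulators 3 were higher and 1 lower, among them *Ssh2*, a phosphatase that activates cofilin (0.83 ± 0.0970, SE, adjusted p = 1.94e-05 by limma), and the coronin *Coro2b* (-0.68 ± 0.100, adjusted p = 0.000198).

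Of 13 formins, which elongate unbranched filaments, 2 were higher and 3 lower, with *Daam2* at 0.37 ± 0.0715 (SE; adjusted p = 0.00238 by limma) and *Fmnl3* at -0.51 ± 0.0644 (adjusted p = 4.55e-05). Of 10 monomer-binding genes 1 was higher and 1, *Pfn2*, was lower (-0.37 ± 0.0558, SE, adjusted p = 0.000239 by limma). Actins and crosslinkers held no gene called higher by limma, with 1 of 6 and 2 of 20 called lower. The list named crosslinkers also holds tropomyosins, which lie along filaments. Its calls were *Tpm1*, a tropomyosin (789 ± 33.7 CPM with aldosterone and 1119 ± 19.3 CPM with vehicle, SD, n = 4, log2 fold change -0.50, adjusted p = 1.03e-05 by limma), and *Tagln2* (-0.38 ± 0.0519, SE, adjusted p = 9.15e-05 by limma). The actin called was *Acta1*, the skeletal muscle actin, at 9.95 ± 4.01 CPM with aldosterone and 22.7 ± 4.32 CPM with vehicle (SD, n = 4; -1.26 on the log2 scale, adjusted p = 0.000994 by limma). *Acta1* also belongs to the myogenic list, and its call was lost without vehicle 1_1, 1_2 or 2_2 or without aldosterone 2_1 or 2_2, with adjusted p-values by limma of 0.0506 to 0.0781.

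**Figure D5:**
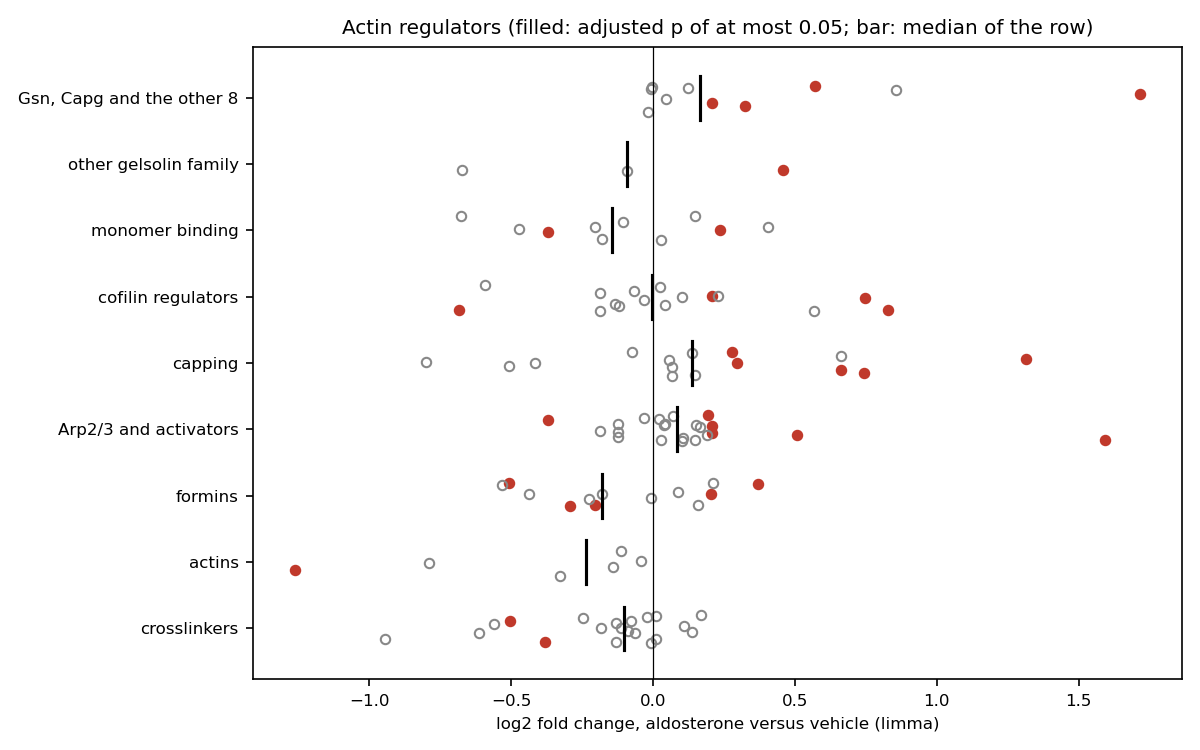
Log2 fold change with aldosterone against vehicle of the 10 members (top row) and of the other genes of 8 actin lists, each point a gene (spread vertically for legibility), filled where the adjusted p by limma is 0.05 or less, with a bar at the median of the row. The rows of the capping list and of other gelsolin relatives hold 5 and 1 filled points, all on the higher side, those of actins and crosslinkers hold 1 and 2, all on the lower side, and the other lists hold filled points on both sides. *Gsn* is filled in the top row by the same rule, which is no test of it, since it was chosen on these values.

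The genes whose levels followed that of *Gsn* most closely were looked for over the 12 libraries among the 11220 genes whose mean reached 100 reads. The 5 highest Pearson correlations of log2 CPM were those of *Serpina3n* (0.998), *Aldh1a1* (0.998), *Selenop* (0.998), *Tsc22d3* (0.998) and *Ndrg2* (0.997). The 12 points form 2 groups, aldosterone and the rest, and libraries of a group share their treatment, so these values describe a shared step between treatments and carry no p. *Serpina3n*, a secreted protease inhibitor, went from 15.2 ± 0.376 CPM with vehicle to 212 ± 26.3 CPM with aldosterone (SD, n = 4), and *Tsc22d3*, which encodes the steroid-induced leucine zipper protein GILZ, from 82.4 ± 1.82 to 532 ± 22.9 CPM. Among the members the same measure was 0.94 for *Capg*, 0.91 for *Svil* and 0.85 for *Flii*, and between -0.33 and 0.29 for the other 6.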

How the data were processed

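RNA was sequenced from 12 cultures of neonatal mouse muscle fibroblasts, 4 per treatment, and grouped by their labels. Per the labels, reads were aligned with HISAT2 2.0.5 and counted with featureCounts 1.5.0-p3 on mm39 (the methods name mm9). The authors divided the counts of each comparison by DESeq2 size factors, and the deposited values are such normalized counts, a signal without a length correction. The fold changes and p-values also deposited by the authors were not used. The whole reads behind the values were recovered within 0.01 reads from 22 columns of values, which cover all 12 libraries. A further 2 columns, whose scaling was within 1% of 1, were not recovered this way, and genes listed only there were rounded. For the 10 libraries recovered in 2 comparisons, 0 genes differed between them.

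The main test was limma 3.58.1 (R 4.3.3) with a trend on log2(normalized count + 1) over all genes of a table, adjusted by Benjamini-Hochberg, and it was tested on simulated data. Members and gene lists were chosen with earlier results of these data known. From each actin list up to 2 called genes were named, those of the largest absolute log2 fold change against vehicle whose mean reached 100 normalized counts, and genes like *Gsn* were the 5 of highest correlation. DESeq2 1.42.0 and edgeR 4.0.16 were run on the recovered reads, and scaling, pseudocount (0.5 or 5), a filter at a mean of 10, replicate blocks and leaving out each library were tried. Libraries of the same sample number deviated together, with a mean correlation of 0.207 and a lowest of 0.120 over 24 pairs and 15706 genes, so the sample number pairs the libraries. The main fits were made without it, and fits with it as a replicate block were an alternative, given beside each call it changes. Libraries with the same biological replicate number had a mean correlation of -0.0048.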

Additional observations from a re-analysis of the deposited data

Results flagged for a closer look

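The share of *Cfl1* in the ADF/cofilin family per length was 40.3% in spironolactone library 2_1 and between 37.1% and 37.3% in the other 3 spironolactone libraries, a gap of 0.949 of the range of the group, which is past the 95% critical value of Dixon for 4 samples. The share of *Dstn* was 60.7% in aldosterone library 1_1 and between 58.6% and 58.9% in the other 3, a gap of 0.864 of the range. In all, 39 groups of 4 libraries were checked and 2 stood out in this way, while chance alone does so in about 1 group in 20. *Scin* differed between aldosterone and spironolactone by -0.86 on the log2 scale in sample number 1 and by 1.17 in sample number 2, a difference of 2.03 that was not tested and that rests on at most 24 reads in a library.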

How the results depend on the processing

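In the fits with a replicate block for the sample number, 2371 genes were higher and 2192 lower with aldosterone than with vehicle, and 2095 and 1879 against spironolactone, while 97 genes were called between spironolactone and vehicle (13 by DESeq2). Among the members this replicate block changed the call of *Dstn* with aldosterone against vehicle and no other, and the biological replicate number as a block changed none. The aldosterone interaction with sample number had 4 genes, and 2 at either pseudocount, 11 with the filter at a mean of 10, 15 by DESeq2 and 0 without any 1 library, and the spironolactone interaction had 3 with that filter and 1 by DESeq2. With TMM scaling the values of *Cfl1* and *Pfn1* against vehicle turned from just below 0 to 0.0042 and 0.00087.

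Leaving out each library gave 993 to 1262 genes higher and 773 to 984 lower with aldosterone than with vehicle, and 897 to 1037 and 665 to 828 against spironolactone. It gave 1 to 2 members higher in sample number 2. Log2 fold changes with aldosterone against vehicle then ran from -0.061 to 0.036 for *Cfl1*, from -0.063 to 0.020 for *Cfl2* and from -0.045 to 0.026 for *Pfn1*, and around higher values from 0.060 to 0.173 for *Dstn* and from 0.060 to 1.42 for *Scin*. Against spironolactone they ran from -0.27 to 0.72 for *Scin* and from -0.051 to 0.020 for *Tmsb4x*. With spironolactone against vehicle they ran from -0.10 to 1.09 for *Scin*, from -0.062 to 0.022 for *Svil*, from -0.0064 to 0.038 for *Flii* and from -0.027 to 0.10 for *Dstn*. The difference in share ran from -0.454 to 0.899 percentage points for *Cfl1* and from -1.08 to 0.269 for *Dstn*. The cause of these changes was not tested, beyond the smaller number of samples. *Scin* had no value with the filter at a mean of 10, nor by edgeR in the comparisons with spironolactone, and DESeq2 gave it no adjusted p between spironolactone and vehicle. Its depth of 0 to 24 reads limits every statement on it.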
